A study of Homo sapiens with 2 samples.

Results

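The cytosolic ribosomal protein genes were followed one by one in A549 cells, a human lung adenocarcinoma line. Gene entries were taken as members when their symbol was RPL or RPS with a number and an optional A, RPLP0, RPLP1, RPLP2, RPSA or RPS4X. The rule takes the gene entry with the most summed counts where a symbol has several, and otherwise uses no measured value. It found 77 of the 57736 genes in the deposited table, 46 of the large and 31 of the small ribosomal subunit. One library came from A549 cells with a red fluorescent reporter of vimentin (A549 VIM RFP) in which epithelial to mesenchymal transition (EMT) was induced with TGF-beta, called EMT cells after the label, and the other library came from untreated cells. Both are labelled WT for genotype, while neither dose nor duration of TGF-beta is given in the sources used here. Each group was 1 library made with AmpliSeq, a multiplex PCR of short segments of transcripts, so no difference below has a replicate check and none was tested. The library labelled EMT went against its label on the sum of 4 mesenchymal markers, 70 counts in EMT cells against 488 in untreated cells. Most of both sums was VIM. VIM (vimentin), which EMT is known to raise, had 56 counts in EMT cells against 452 in untreated cells. The adhesion molecule CDH2 had 11 counts in EMT cells against 25 in untreated cells, and the transcription factor SNAI2 had 0 counts in EMT cells against 11 in untreated cells. FN1 (fibronectin) had 3 counts in EMT cells against 0 in untreated cells. COL1A1, a collagen gene kept in another marker list, had 356 counts in EMT cells against 196 in untreated cells. The 10 markers of epithelial and A549 cells summed to 187 counts in EMT cells against 544 in untreated cells, though EPCAM had 7 against 4.

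Each ribosomal protein is needed at about 1 copy in every ribosome, and the cell makes the large and small subunit proteins in matched amounts. Their mRNAs are short, very abundant in growing cells, and mostly begin with a C followed by an uninterrupted run of pyrimidines at the cap, the 5′ terminal oligopyrimidine (TOP) motif. Through that motif the kinase mTORC1 and the cap-binding protein LARP1 control how strongly these mRNAs are translated and how stable they are. TGF-beta is a cytokine that drives epithelial cells, A549 among them, into EMT.

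The start of a member's transcript is the sequence that sets this family apart, so it is shown for members described further on: several with a much lower count in EMT cells, and several with a similar or higher one. Sequences are from RefSeq on GRCh38.p14 and run from 10 bases before to 20 bases from the first transcribed base, and capitals mark the pyrimidine run that begins with a C at that base.
RPS12, chr6:132814559-132814588, plus strand: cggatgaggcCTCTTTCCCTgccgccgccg
RPS23, chr5:82278335-82278364, minus strand: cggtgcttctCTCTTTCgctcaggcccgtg
RPS3, chr11:75399508-75399537, plus strand: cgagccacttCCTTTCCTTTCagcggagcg
RPLP1, chr15:69452808-69452837, plus strand: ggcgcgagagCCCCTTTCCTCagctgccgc
RPL29, chr3:51995876-51995905, minus strand: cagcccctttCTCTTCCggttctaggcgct
RPS16, chr19:39435930-39435959, minus strand: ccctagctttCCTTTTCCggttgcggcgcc
RPL10, chrX:154398055-154398084, plus strand: ccactctcagaaatatacgtctgtcacagt
RPL32, chr3:12841546-12841575, minus strand: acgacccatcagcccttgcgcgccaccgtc
RPS4X, chrX:72277229-72277258, minus strand: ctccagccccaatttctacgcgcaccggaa
RPS19, chr19:41860245-41860274, plus strand: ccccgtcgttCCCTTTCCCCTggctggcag
RPS24, chr10:78033853-78033882, plus strand: aatcgtggttCTCTTTTCCTCCTTggctgt
RPL31, chr2:101002279-101002308, plus strand: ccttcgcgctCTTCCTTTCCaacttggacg
RPL34, chr4:108620566-108620595, plus strand: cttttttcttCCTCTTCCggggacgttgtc
RPS29, chr14:49598691-49598720, minus strand: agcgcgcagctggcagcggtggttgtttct
The run was present in 10 of these 14 windows, in members with a much lower count and in RPS24, RPL31 and RPL34 alike. No such run began at the annotated first base of RPL10, RPL32 and RPS4X, which were much lower in EMT cells, or of RPS29, which was higher. In RPL32, but not in the other 3, a C followed by 4 pyrimidines began within 5 bases of that base. Such a near start was found in 50 of 62 members (80.6%), against 21.1% of all promoters. Of the 62 members with a promoter in the RefSeq table, 42 (67.7%) had a C at the first base followed by at least 4 pyrimidines, against 4.07% of all 35116 promoters in that table. The share was 65.8% of 38 large subunit and 70.8% of 24 small subunit promoters. The motif CCGGAAG, on either strand of the 300-base promoter, was found in 21 of the 62 (33.9%) and in 10.3% of all promoters. AAGATGG was found in 8 (12.9%), against 5.84% of all promoters, and TATAAA in 5 (8.06%), against 11.5%. CCGGAAG and AAGATGG can share the letters AAG where they adjoin, and TATAAA and AAGATGG the letters AA. A match describes the annotated sequence, not binding.

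Ribosomal protein genes held far fewer counts in TGF-beta-induced cells than in untreated cells. The 77 genes together had 1475 counts in EMT cells against 21479 in untreated cells, a share of 0.247% of the EMT library (exact 95% interval 0.235 to 0.260%) against 3.18% in untreated cells (3.14 to 3.23%). After scaling by the trimmed mean of M values (TMM), the summed level was 11.5-fold lower, a log2 ratio of TGF-beta over untreated of -3.53 (95% interval -3.61 to -3.45). Intervals here and below are exact, cover counting error only, and treat reads as independent, which PCR reads without molecular identifiers are not. In bulk RNA, fewer cells that express these genes and less of their RNA per cell cannot be told apart.

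Of the 77 members, 70 had at least 5 CPM (counts scaled to a library total of 1000000) in 1 library. At a limit of 2-fold, 60 of these were lower in EMT cells, 2 (RPS29 and RPS24) were higher, and 8 lay between, RPS15 among them with too few counts for a ratio. Over all 15401 genes past the same filter, 26.7% were lower and 22.0% higher by that limit. The counting interval lay wholly below equality for 57 of the 70 members, against 16.8% of all genes past the filter. The median log2 ratio of the 70 was -3.28 (quartiles -3.87 and -2.29), beside 0.01 over all genes past the filter. These 2-fold shares and medians also take in genes past the filter with at most 3 counts in both libraries, RPS15 among them. Such genes could count as higher but not as lower, and 14067 genes had enough counts for a ratio. The remaining 7 members, RPL6, RPL7, RPL14, RPL17, RPL36A and RPL39 among them, had 0 to 3 counts in each library and were given no ratio.

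The members kept much the same order of counts in both libraries (Spearman 0.865 across the 77 genes, which share the 2 libraries, as a description). The highest count of a member was 128 in EMT cells (RPS19) against 1962 in untreated cells (RPS16). The median member had 13 counts in EMT cells against 163 in untreated cells. There were 73 members above 0 in EMT cells against 75 in untreated cells, and members with at least 20 counts numbered 25 in EMT cells against 54 in untreated cells. The 10 members with the most counts held 48.1% of the members' counts in EMT cells against 53.1% in untreated cells.

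The members were also classed by their mean level in both libraries. For most members that mean is mainly the untreated value, so the classes partly restate the ratio and are given as a description. The 27 members with a mean of at least 200 CPM summed to 1078 counts in EMT cells against 17835 in untreated cells, a log2 ratio of -3.71 (-3.80 to -3.62). For the 18 members between 50 and 200 CPM the sums were 264 counts in EMT cells against 3185 in untreated cells (-3.26, -3.44 to -3.08). All 45 members of these classes were at least 2-fold lower, against 28.0% of the 1491 genes with a mean of at least 50 CPM. Between 10 and 50 CPM, 17 members summed to 111 counts in EMT cells against 402 in untreated cells (-1.52, -1.84 to -1.21), with 12 at least 2-fold lower and 2 higher, while 30.7% of other genes in this class were lower. Under 10 CPM, 15 members summed to 22 counts in EMT cells against 57 in untreated cells (-1.04, -1.82 to -0.31), with 3 lower and none higher, and 8 without a ratio. Of other genes of this class 26.1% were lower, a share that also counts genes too low for a ratio. It was thus made by another rule than the members' count, and the 2 cannot be ranked. The members that were not 2-fold lower all had a mean under 50 CPM.

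**Figure D1:**
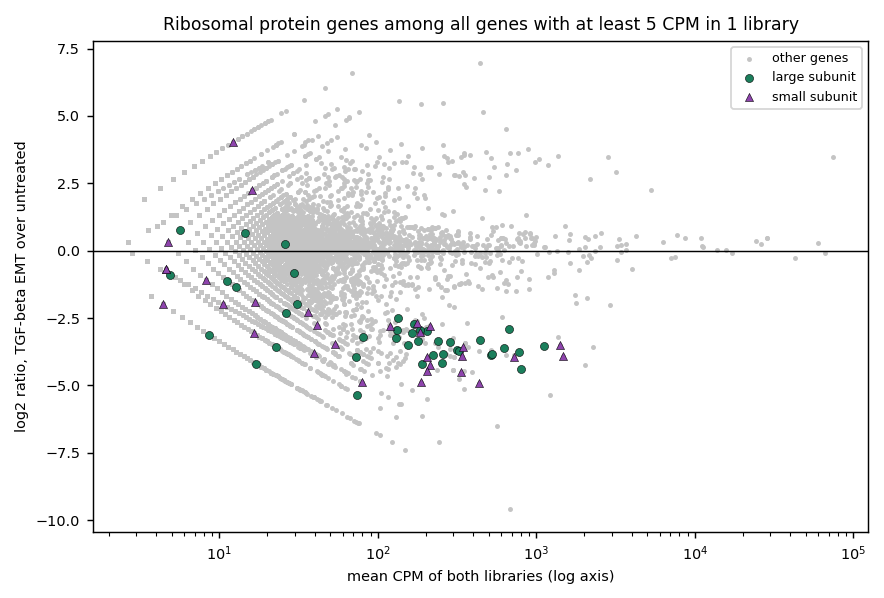
The log2 ratio of TGF-beta EMT over untreated (vertical axis) against the mean level of both libraries in CPM (log axis), for all genes with at least 5 CPM in 1 library and for the ribosomal protein genes by subunit. The members with a mean of at least 50 CPM all lie below -1, and RPS29 and RPS24 stand above 1 at low levels.

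The ribosomal stalk, which recruits the translation GTPases, had a summed log2 ratio of -3.98, against -3.45 for the whole large subunit. All 4 stalk genes had a mean of at least 200 CPM, and the 27 members of that class, these included, summed to -3.71. A difference from other members at like levels was not tested. Of the stalk's proteins only RPLP1 was among the 5 lowest large subunit members with at least 20 CPM in 1 library. Values in parentheses here and below are log2 ratios of EMT over untreated cells, with the 95% counting interval after the comma where it is given. RPLP0, the stalk's anchor on the ribosome, had 39 counts in EMT cells against 701 in untreated cells (-3.83). RPLP1, an acidic protein that pairs with RPLP2 on that anchor, had 41 counts in EMT cells against 1083 in untreated cells, 20.9-fold lower (log2 ratio -4.39, -4.87 to -3.94). RPLP2 had 60 counts in EMT cells against 1029 in untreated cells (-3.76). RPL12, at the base of the stalk, had 19 counts in EMT cells against 344 in untreated cells (-3.84). All 4 stalk proteins were more than 10-fold lower, and together they had 159 counts in EMT cells against 3157 in untreated cells, 15.7-fold lower (-3.98, -4.21 to -3.75). RPL5 and RPL11 bind the 5S ribosomal RNA and, when free, hold back the ubiquitin ligase MDM2. RPL5 had 9 counts in EMT cells against 104 in untreated cells (-3.19) and RPL11 had 89 counts in EMT cells against 852 in untreated cells (-2.92). Their sum of 98 counts in EMT cells against 956 in untreated cells was 7.73-fold lower (-2.95, -3.27 to -2.65). That interval does not overlap the stalk's, but RPL11 gave most of the sum. The interval of RPL5 alone (-4.36 to -2.21) covers the whole of the stalk's. Spread between genes is in none of these intervals, so the 2 groups are not shown to differ.

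The proteins near the catalytic centre and core of the large subunit were lower as well, where they had enough counts to tell. RPL3, near the peptidyl transferase centre, had 26 counts in EMT cells against 260 in untreated cells (-2.99). RPL4, which reaches into the exit tunnel, had 99 counts in EMT cells against 1458 in untreated cells (log2 ratio -3.54, -3.85 to -3.25). RPL8, another protein close to the catalytic centre, had 14 counts in EMT cells against 169 in untreated cells (-3.26). RPL10 joins the subunit late, as its last maturation steps are completed. It had 11 counts in EMT cells against 256 in untreated cells, 18.4-fold lower (log2 ratio -4.20, -5.23 to -3.34). RPL10A forms the mobile L1 stalk beside the tRNA exit and had 23 counts in EMT cells against 163 in untreated cells, a smaller difference (log2 ratio -2.49, -3.19 to -1.85). RPL23, at the face where the subunits meet, had 26 counts in EMT cells against 418 in untreated cells (-3.67). RPL9 had 1 count in EMT cells against 23 in untreated cells, and this single count left a wide interval (log2 ratio -4.19, -9.55 to -1.57). The core proteins RPL7, RPL13A and RPL27A had few counts. RPL7 had 1 count in EMT cells against 2 in untreated cells, RPL13A had 1 count in EMT cells against 11 in untreated cells, and RPL27A had 4 counts in EMT cells against 13 in untreated cells.

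Around the mouth of the exit tunnel, where nascent chains meet chaperones and the signal recognition particle, 1 protein stood apart from the rest. RPL23A, a docking site for such factors, had 2 counts in EMT cells against 30 in untreated cells (-3.57). RPL35 had 28 counts in EMT cells against 371 in untreated cells (-3.39), and RPL26 had 16 counts in EMT cells against 299 in untreated cells (-3.89). RPL19 had 46 counts in EMT cells against 572 in untreated cells (-3.30). All of these were lower by more than 2-fold in EMT cells. RPL31, at the same rim, had 16 counts in EMT cells against 17 in untreated cells (log2 ratio 0.25, -0.83 to 1.32), an interval that covers equality. RPL17 had 0 counts in EMT cells against 3 in untreated cells and RPL39, a very small protein lining the tunnel, had 1 count in EMT cells against 3 in untreated cells.

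Of the other large subunit proteins, those with the most counts were again lower. RPL28 had 54 counts in EMT cells against 828 in untreated cells (-3.60) and RPL18 had 37 counts in EMT cells against 689 in untreated cells (-3.88). RPL37A had 26 counts in EMT cells against 432 in untreated cells (-3.72) and RPL32 had 15 counts in EMT cells against 343 in untreated cells (log2 ratio -4.18, -5.03 to -3.44). RPL29, a protein of the subunit's outer surface, had 2 counts in EMT cells against 103 in untreated cells. It was 40.8-fold lower, the lowest ratio among large subunit members with at least 20 CPM in 1 library. The interval was wide (log2 ratio -5.35, -8.42 to -3.46). Its pseudogenes had 16 counts in EMT cells against 22 in untreated cells. With these added, the log2 ratio was -2.46 (-3.26 to -1.74). RPL27, RPL15, RPL38, RPL30, RPL36 and RPL7A formed a middle class with ratios between -3.52 and -2.94. RPL27 had 24 counts in EMT cells against 312 in untreated cells and RPL15 had 18 counts in EMT cells against 233 in untreated cells. RPL38, which in mice is needed for the translation of Hox mRNAs, had 24 counts in EMT cells against 233 in untreated cells. RPL30 had 20 counts in EMT cells against 208 in untreated cells. The last of this class were RPL36 with 14 counts in EMT cells against 202 in untreated cells, and RPL7A with 17 counts in EMT cells against 167 in untreated cells. None of these 6 came within 2-fold of equality.

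The other large subunit members rested on about 100 counts or fewer in untreated cells. RPL24, which forms a bridge to the small subunit, had 5 counts in EMT cells against 98 in untreated cells (-3.96). With its pseudogenes' counts added, its log2 ratio was -2.54. RPL13 had 7 counts in EMT cells against 35 in untreated cells (log2 ratio -1.99, -3.40 to -0.79), and RPL21 had 5 counts in EMT cells against 31 in untreated cells (log2 ratio -2.30, -4.02 to -0.92). These 3 were lower in EMT cells. RPL37 had 12 counts in EMT cells against 27 in untreated cells (log2 ratio -0.83, -1.95 to 0.20), and RPL22, the paralogue of RPL22L1, had 4 counts in EMT cells against 11 in untreated cells (-1.12). RPL34 had 10 counts in EMT cells against 8 in untreated cells (log2 ratio 0.66, -0.83 to 2.20), and RPL41, the smallest ribosomal protein, had 4 counts in EMT cells against 3 in untreated cells (log2 ratio 0.75, -1.81 to 3.52). The intervals of these 4 cover equality. RPL35A had 0 counts in EMT cells against 7 in untreated cells. It was 1.85-fold lower with the 0 held at a floor of 3 counts per library (upper end of the log2 interval -0.19). RPL6 had 1 count in EMT cells against 0 in untreated cells, RPL14 had 1 count in EMT cells against 3 in untreated cells, and RPL36A had 0 counts in EMT cells against 0 in untreated cells. A count of 0 allows up to 3 counts at this depth, so absence of these mRNAs cannot be read from it.

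**Figure D2:**
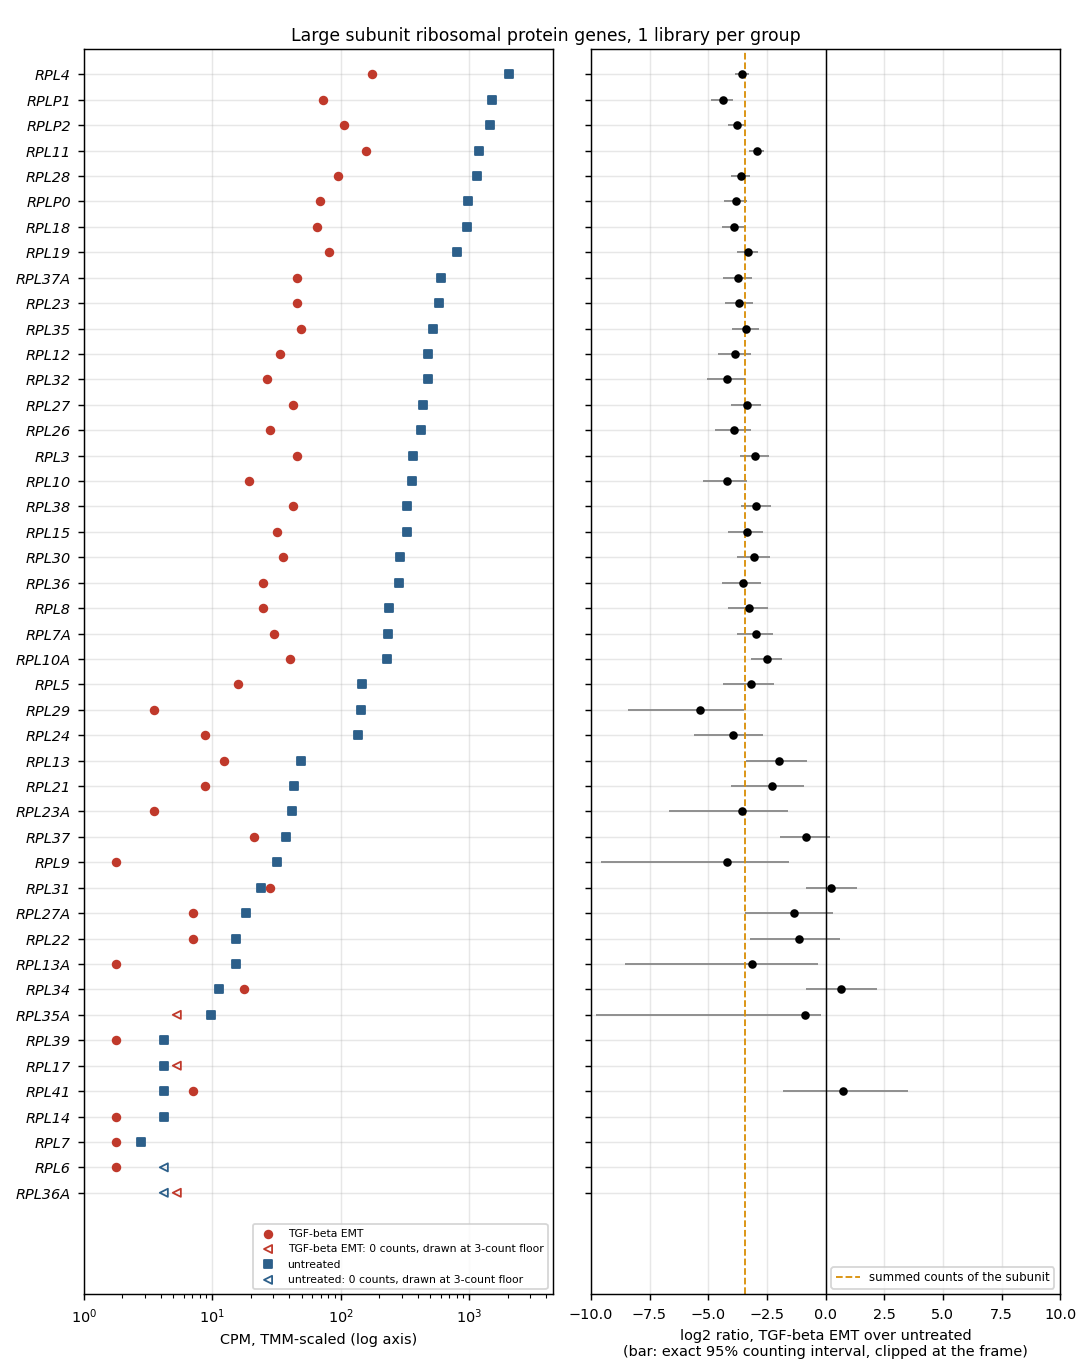
Level in CPM (left, log axis) and log2 ratio of TGF-beta EMT over untreated with its 95% counting interval (right) for 45 of the 46 large subunit genes, 1 library per group. Most genes with over 100 counts in untreated cells lie near the dashed line of the subunit's summed ratio, -3.45, while RPL31, RPL34 and RPL41 lie near equality.

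In the small subunit, the proteins of the head included the members with the most counts of all. RPS16 (hg19 chr19:39923847-39926588, minus strand), whose tail reaches toward the tRNA sites, had 103 counts in EMT cells against 1962 in untreated cells (log2 ratio -3.92, -4.22 to -3.63). RPS19 (hg19 chr19:42363988-42376994, plus strand), the protein most often mutated in Diamond-Blackfan anaemia, had 128 counts in EMT cells against 1839 in untreated cells (log2 ratio -3.51, -3.78 to -3.25). Both were more than 10-fold lower in EMT cells. RPS12 (hg19 chr6:133135580-133138703, plus strand), at the head's beak and a sensor of cell competition in Drosophila, had 16 counts in EMT cells against 600 in untreated cells. It was 29.7-fold lower, the lowest ratio among small subunit members with at least 20 CPM in 1 library (log2 ratio -4.89, -5.71 to -4.18). RPS3, which guards the mRNA entry, had 16 counts in EMT cells against 459 in untreated cells, 22.7-fold lower (log2 ratio -4.51, -5.33 to -3.79). RPS20 had 7 counts in EMT cells against 257 in untreated cells (log2 ratio -4.86, -6.19 to -3.80), and RPS25, needed by several viral internal ribosome entry sites, had 10 counts in EMT cells against 278 in untreated cells (log2 ratio -4.46, -5.54 to -3.56). The intervals of RPS12, RPS3, RPS20 and RPS25 all lay below the summed ratio of the 77 members, as did those of RPS16 and RPLP1.

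The remaining head proteins differed less or had fewer counts. RPS27A, made as a fusion with ubiquitin, had 27 counts in EMT cells against 219 in untreated cells (-2.68). RPS18 had 5 counts in EMT cells against 70 in untreated cells (-3.47), and RPS10, near the mRNA entry, had 7 counts in EMT cells against 43 in untreated cells (log2 ratio -2.28, -3.68 to -1.12). All 3 were lower. RPS15 had 3 counts in EMT cells against 3 in untreated cells, and RPS28 had 2 counts in EMT cells against 4 in untreated cells, too few to place either. RPS29 (hg19 chr14:50043390-50065408, minus strand), a small zinc-binding protein, went the other way with 13 counts in EMT cells against 1 in untreated cells (log2 ratio 4.04, 1.30 to 9.45). Its ratio rests on the 1 count in untreated cells.

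The proteins of the small subunit's body and platform were mostly lower as well. RPS6, the main ribosomal substrate of the S6 kinases that act downstream of mTORC1, had 30 counts in EMT cells against 454 in untreated cells (-3.58). RPS4X, an X-linked gene, had 24 counts in EMT cells against 453 in untreated cells (-3.90). These 2, RPS21 and RPS9 were all more than 10-fold lower. RPS21 had 12 counts in EMT cells against 288 in untreated cells (-4.25), and RPS9, at the mRNA entry, had 14 counts in EMT cells against 272 in untreated cells (-3.94). RPS13 had 17 counts in EMT cells against 148 in untreated cells (-2.79), a smaller difference. RPS23, which sits by the decoding centre, had 3 counts in EMT cells against 110 in untreated cells, 29.1-fold lower with a wide interval (log2 ratio -4.86, -7.16 to -3.28). The exon entries of RPS23 held 0 counts in EMT cells against 0.079 in untreated cells, so its ratio is uncertain. RPS3A had 3 counts in EMT cells against 53 in untreated cells (-3.81), and RPS15A had 6 counts in EMT cells against 51 in untreated cells (-2.75).

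Body and platform members with few counts gave less clear values. RPS2, at the mRNA entry, had 4 counts in EMT cells against 19 in untreated cells (log2 ratio -1.91, -3.93 to -0.32), and RPS27 had 2 counts in EMT cells against 21 in untreated cells (-3.06). RPS7 had 0 counts in EMT cells against 15 in untreated cells. It was 3.96-fold lower with the 0 held at the floor of 3 counts (upper end of the log2 interval -1.51). These 3 intervals lay below equality. RPS14, whose loss causes the anaemia of the deletion on the long arm of chromosome 5, had 3 counts in EMT cells against 8 in untreated cells (-1.08). RPS26, at the mRNA exit, had 1 count in EMT cells against 5 in untreated cells, and RPSA, also known as the laminin receptor, had 2 counts in EMT cells against 4 in untreated cells. The intervals of these 3 cover equality. RPS24 (hg19 chr10:79793518-79816570, plus strand), a Diamond-Blackfan anaemia gene, had 15 counts in EMT cells against 4 in untreated cells, 4.73-fold higher (log2 ratio 2.24, 0.59 to 4.29).

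**Figure D3:**
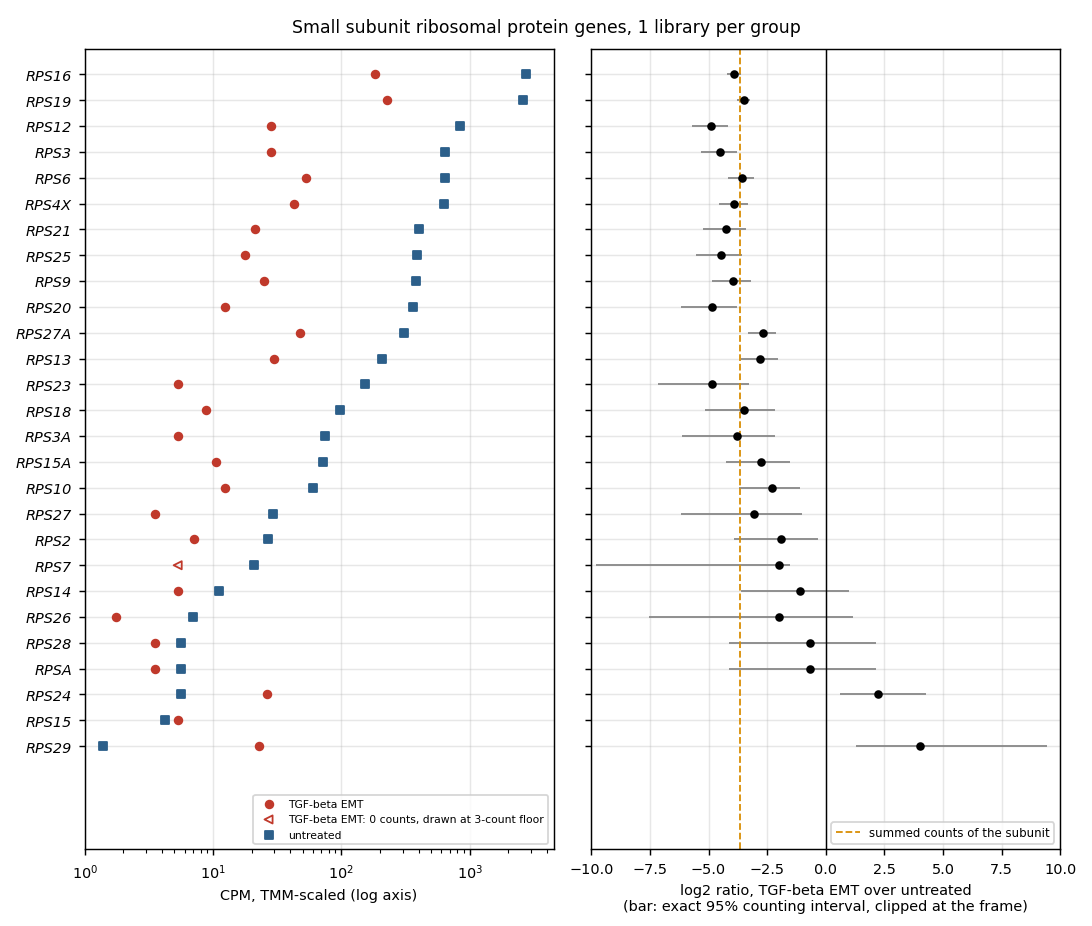
Level in CPM (left, log axis) and log2 ratio of TGF-beta EMT over untreated with its 95% counting interval (right) for 27 of the 31 small subunit genes, 1 library per group. RPS12, RPS3, RPS20 and RPS25 lie left of the dashed line of the subunit's summed ratio, -3.64, and RPS24 and RPS29 lie right of equality.

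The large and small subunits differed far less from each other than either did between the libraries. The 46 large subunit genes had 897 counts in EMT cells against 12364 in untreated cells, 10.9-fold lower (-3.45, -3.55 to -3.35). The 31 small subunit genes had 578 counts in EMT cells against 9115 in untreated cells, 12.5-fold lower (-3.64, -3.77 to -3.52). The large subunit thus held 60.8% of the members' counts in EMT cells (exact 95% interval 58.3 to 63.3%) and 57.6% in untreated cells (56.9 to 58.2%). The ratio of large to small subunit counts was 1.55 in EMT cells against 1.36 in untreated cells, a log2 difference of 0.19 (0.04 to 0.35). By medians the order was the other way round: -3.33 over the 40 large subunit members past the filter and -3.04 over the 30 of the small subunit, a difference of -0.29. Of these 40 large subunit members 35 were at least 2-fold lower and none higher, and of these 30 small subunit members 25 were lower and 2 higher. The difference in medians itself changed sign with the filter: it was 0.055 at a filter of 20 CPM and 0.39 at a mean of at least 50 CPM. The sign of the gap between the subunits therefore depended on the measure and on the filter.

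The deposited exon entries split the members' counts further, here by a length limit of 1000 bases that was chosen after the values were seen. Entries of a gene can overlap: the 1796-base entry of RPL12 contains those of 99 and 74 bases. The split is thus the authors' estimate and does not mark separate places on a gene. In exon entries under 1000 bases the members had 1441 counts in EMT cells against 21617 in untreated cells, a log2 ratio of -3.57 (-3.65 to -3.49). In entries of at least 1000 bases they had 71 counts in EMT cells against 231 in untreated cells, a smaller difference (-1.37, -1.77 to -0.98). RPL12 alone gave 14.5 of the long-entry counts in EMT cells against 124.1 in untreated cells, and without it the members had 57 counts in EMT cells against 107 in untreated cells (-0.57, -1.06 to -0.10). Long entries held 4.70% of the members' exon counts in EMT cells against 1.06% in untreated cells. Other genes had 102359 counts in long entries in EMT cells against 110286 in untreated cells (0.23, 0.22 to 0.24). That value leaves out CTD-2587M23.1, a gene with 77313 counts in EMT cells against 8670 in untreated cells. Ribosomal protein mRNAs are usually spliced from short exons.

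In EMT cells 9 members had most of their exon counts in long entries, RPL12 with its much lower ratio among them. RPL31, RPL34 and RPL37, whose intervals covered equality, were others. RPL31 had 14.8 estimated counts in EMT cells against 15.0 in untreated cells in an entry of 2210 bases. RPL34 had 7 counts in EMT cells against 4 in untreated cells in an entry of 1228 bases, and 3 counts in EMT cells against 4 in untreated cells in one of 1399 bases. RPL37 had 11 counts in EMT cells against 9.5 in untreated cells in an entry of 7312 bases, but 0.766 in EMT cells against 13.8 in untreated cells in its exon of 136 bases. The 2 members that were at least 2-fold higher had more of their counts in short exons. RPS24 had 11 counts in EMT cells against 3 in untreated cells in an exon of 111 bases, and RPS29 had 8.66 in EMT cells against 0.988 in untreated cells in one of 104 bases. Within RPS12 the entries differed. Its entry of 253 bases had 1.05 counts in EMT cells against 450.2 in untreated cells, and that of 103 bases had 3.57 in EMT cells against 126.8 in untreated cells. Its entry of 117 bases, which lies wholly inside that of 253 bases, differed less. It had 11.4 counts in EMT cells against 22.3 in untreated cells. Exon sums differed from the gene's own count by over 10% in 15 members, so these entries are a description only. In untreated cells RPS23 had 0.079 exon counts for a gene count of 110.4, RPS15A 0 for 51.3 and RPL21 279 for 31.3. The gene counts of these members are thus not borne out by their exon entries.

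**Figure D4:**
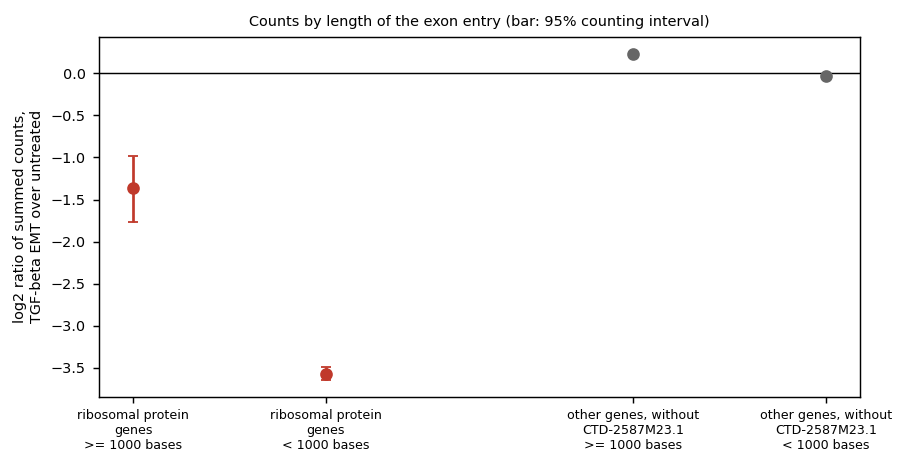
The log2 ratio of summed counts, TGF-beta EMT over untreated, in exon entries of at least and under 1000 bases, for the ribosomal protein genes and for other genes without CTD-2587M23.1, with 95% counting intervals. The members' short entries sit at -3.57 and their long entries at -1.37 (-0.57 without RPL12), while other genes sit near 0.

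Ribosomal protein genes have many processed pseudogenes of near-identical sequence, and no source used here says how the authors' counting split reads among them. The 814 pseudogene entries named after members had 409 counts in EMT cells against 1271 in untreated cells (-1.30, -1.46 to -1.14). Of the 57 past the filter, 17 (29.8%) were at least 2-fold lower and 10 higher, with a median of -0.08. Over all genes past the filter, 26.7% were lower and 22.0% higher. The 12 pseudogenes with the most counts included 5 with ratios like those of the members. RPL13AP5 had 17 counts in EMT cells against 475 in untreated cells (-4.47, -5.26 to -3.77), beside 1 count in EMT cells against 11 in untreated cells for RPL13A itself. RPL39P3 had 6 counts in EMT cells against 107 in untreated cells (-3.82, -5.30 to -2.65), beside 1 count in EMT cells against 3 in untreated cells for RPL39. RPL36AP13 had 1 count in EMT cells against 22 in untreated cells, RPS2P5 had 1 count in EMT cells against 18 in untreated cells, and RPS10P3 had 2 counts in EMT cells against 28 in untreated cells. Such counts may belong to either copy. The values of members whose pseudogenes hold more counts than they do in either library are therefore uncertain. RPL13A, RPL39, RPS10, RPS2 and RPSA are among them, and so are RPL29 and RPL24 by their counts in EMT cells. Without RPL13AP5 and RPL39P3, the pseudogenes had 386 counts in EMT cells against 689 in untreated cells (-0.50, -0.68 to -0.32). Pseudogene counts exceeded those of their parent gene for 20 of the 77 members in EMT cells and for 9 in untreated cells. The pseudogenes of RPSA, for example, had 54 counts in EMT cells against 75 in untreated cells, and those of RPS10 had 11 counts in EMT cells against 50 in untreated cells. When they were added to the members, 59 were at least 2-fold lower and 3 higher.

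Some ribosomal proteins fall outside the naming rule. FAU, which encodes a small subunit protein fused to a ubiquitin-like one, had 6 counts in EMT cells against 98 in untreated cells (-3.69, -5.17 to -2.52). Of the 9 paralogues of members, 7 passed the filter, with 5 at least 2-fold lower and 1 higher (RPL10L, 5 counts in EMT cells against 0 in untreated cells). RPL36AL had 2 counts in EMT cells against 38 in untreated cells (-3.91). RPL36AL encodes a protein nearly identical to that of RPL36A, which had no count in either library.

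Other genes with TOP mRNAs, mostly translation factors, were mostly lower too. All 18 passed the filter, 14 were at least 2-fold lower and 1 higher, and their median was -3.01. The higher one was HNRNPA1, a splicing factor, with 36 counts in EMT cells against 4 in untreated cells (3.51, 2.03 to 5.46). PABPC1, the poly(A)-binding protein, had 7 counts in EMT cells against 802 in untreated cells (-6.50). TPT1, the translationally controlled tumour protein, had 10 counts in EMT cells against 200 in untreated cells (-3.99), and EEF1G, an elongation factor subunit, had 3 counts in EMT cells against 83 in untreated cells (-4.45). NAP1L1, a histone chaperone, had 1 count in EMT cells against 66 in untreated cells (-5.71). EEF1D held most of this list's counts, with 759 in EMT cells against 961 in untreated cells, and the interval of its log2 ratio (-0.14 to 0.13) covered equality. Without EEF1D the list summed to 205 counts in EMT cells against 2772 in untreated cells, 10.7-fold lower (-3.42, -3.63 to -3.22).

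The machinery that builds ribosomes had medians nearer to 0. Few of these genes had a mean of at least 50 CPM, and members between 10 and 50 CPM had a summed log2 ratio of only -1.52 (-1.84 to -1.21). The lists were not classed by level, so a difference from the members at like levels was not tested. Genes named here as higher were picked after their values were seen. Over all genes past the filter, 26.7% were at least 2-fold lower and 22.0% higher. For RNA polymerase I, which transcribes the ribosomal RNA precursor, 10 of 15 genes passed the filter, with 4 at least 2-fold lower, 1 higher (CD3EAP) and a median of -0.67. For processing of that precursor and small subunit assembly, 39 of 41 genes passed, with 21 lower, 5 higher (BMS1, IMP3, RIOK1, UTP18 and WDR3) and a median of -1.08. FBL, the fibrillarin methyltransferase, had 12 counts in EMT cells against 132 in untreated cells (-3.12). For large subunit assembly, 40 of 45 genes passed, with 25 lower, 3 higher (RRP1B, RRS1 and URB1) and a median of -1.63. EIF6, which keeps the subunits apart until the large one is mature, had 2 counts in EMT cells against 45 in untreated cells. For chaperones and importers of ribosomal proteins, 14 of 15 passed, with 8 lower, 1 higher (IPO9) and a median of -1.33. Genes of the mTORC1 and MYC pathways, which control ribosomal protein synthesis, had 16 of 17 past the filter and a median of -0.53. Of these, 5 were lower, a share of 31.25% that is near that over all genes. The 1 higher gene was TSC2, with 15 counts in EMT cells against 4 in untreated cells. MYC itself had 12 counts in EMT cells against 95 in untreated cells (-2.65).

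Mitochondrial ribosomal proteins serve a separate ribosome, are imported after translation and do not belong to the TOP class. Of 78 such genes 55 passed the filter, with 38 at least 2-fold lower, 3 higher (MRPL52, MRPL55 and MRPS22) and a median of -1.83. Their summed counts, 729 in EMT cells against 915 in untreated cells, gave a log2 ratio of 0.01 (-0.13 to 0.15), since MRPL55 alone had 492 counts in EMT cells against 93 in untreated cells. Without MRPL55 the sums were 237 counts in EMT cells against 822 in untreated cells (-1.46, -1.67 to -1.25). These genes had low counts, and cytosolic members with a mean between 10 and 50 CPM had a like ratio (-1.52, -1.84 to -1.21). The mitochondrial genes were not classed by level, so whether they differ from the cytosolic genes at like levels was not tested.

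**Figure D5:**
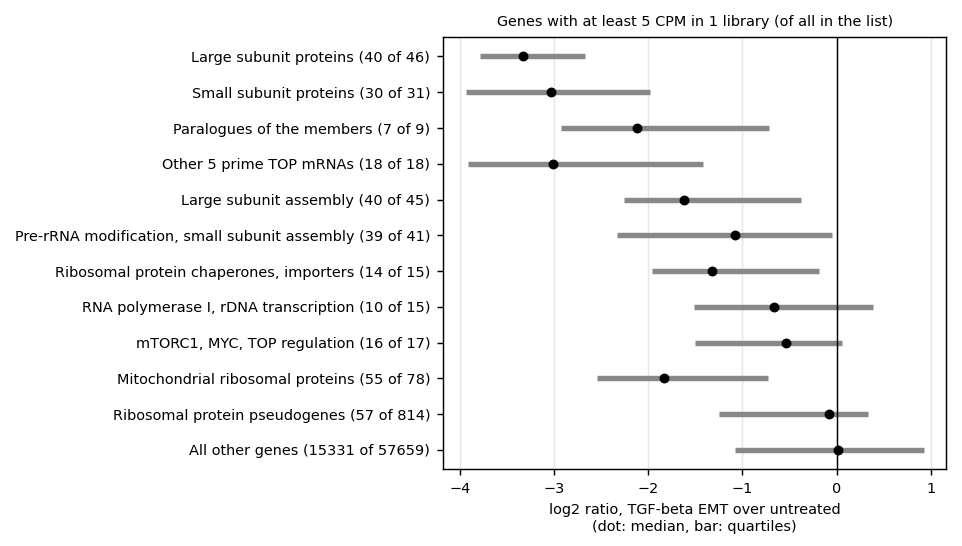
Median (point) and quartiles (bar) of the log2 ratio of TGF-beta EMT over untreated for the ribosomal proteins of each subunit and the other gene lists, over genes with at least 5 CPM in 1 library. The large subunit (median -3.33), the small subunit (-3.04) and other TOP genes (-3.01) lie lowest, and all other genes lie at 0.01.

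Several measures of the libraries moved with these values. The EMT library held 597133 rounded counts and that of untreated cells 674784. The 10 genes with the most counts took 43.7% of the EMT library and 32.7% of the untreated library, with CTD-2587M23.1 alone at 12.9% in EMT cells against 1.28% in untreated cells. Genes with at least 20 counts numbered 1965 in EMT cells against 3157 in untreated cells. GAPDH, a glycolytic enzyme with an abundant mRNA, had 115 counts in EMT cells against 2764 in untreated cells (-4.25), and ACTB, cytoplasmic actin, had 34 counts in EMT cells against 463 in untreated cells (-3.43). The 10 markers of epithelial and A549 cells summed to 187 counts in EMT cells, with 2 at 0 (KRT18 and AKR1B10), and to 544 in untreated cells, with none at 0. The markers of other cell types were low in sum: 9 counts in EMT cells against 35 in untreated cells for 5 leukocyte genes, and 26 counts in EMT cells against 31 in untreated cells for 4 endothelial genes. The 5 fibroblast genes summed to 407 counts in EMT cells against 254 in untreated cells, of which COL1A1 gave 356 in EMT cells against 196 in untreated cells, and LUM was at 0 in both. The part of these measures in the lower ribosomal protein counts was not tested, and with 1 library per group the library and the treatment cannot be told apart.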

How the data were processed

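Total RNA of A549 cells, 10 ng per library per the labels' protocols, was made into AmpliSeq Transcriptome libraries, 1 of TGF-beta-induced (EMT) and 1 of untreated cells. The deposited table holds the authors' expected counts, which are estimates and often not whole numbers, without normalization, for 57736 genes with hg19 coordinates. Per the submitters' processing notes, hg19 and DESeq are named, in roles left unstated. The aligner, the counter and the strand setting are not given, so reads shared with near-identical copies or overlapping genes cannot be assigned with certainty.

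Gene counts were rounded to whole numbers (597133 in EMT cells and 674784 in untreated cells) and scaled by TMM factors of 0.946 and 1.06 (edgeR 4.0.16, R 4.3.3). A gene was compared when it reached 5 CPM in 1 library. The log2 ratio is TGF-beta over untreated, with an exact 95% Clopper-Pearson interval conditional on the summed count (scipy 1.17.1). A count of 0 was held at 3 counts, and genes with at most 3 counts in both libraries got no ratio. Those among them that passed the filter stayed in the 2-fold shares and the medians. With 1 library per group there is no test and no p-value. The ratio calculation was checked on simulated counts.

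Members are named with their counts. For 5 members no single values are reported here, though they stay in the sums and counts. Intervals are given for the 5 lowest and 5 highest members of each subunit among those with at least 20 CPM in 1 library, for members against the median's direction, and for some others chosen after their values were seen. From each of 8 further gene lists up to 4 genes were eligible for naming. The members and lists were chosen with earlier results of these data known. There were 14 alternative settings: 12 planned (DESeq2 1.42.0 size factors, total counts, upper quartile, TMM without the members or without the top 10 genes, other CPM filters, unrounded counts, a pseudocount of 1, a wider member list, symbols summed) and 2 chosen after seeing the data.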

Additional observations from a re-analysis of the deposited data

How the results depend on the processing

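Under the 14 alternatives the number of members at least 2-fold lower was 45 to 63 and the median log2 ratio -3.60 to -2.80. The 45 were all 45 members with a mean of at least 50 CPM, and the 63 were out of 76 at a filter of 1 CPM. The summed log2 ratio was -3.75 with DESeq2 size factors, -3.69 with total counts and -3.45 with the upper quartile. These scalings shifted every gene by -0.22, -0.16 and 0.08. The 2 alternatives chosen after seeing the data gave a summed ratio of -3.26 with pseudogene counts added and -3.63 at a mean of at least 50 CPM. At that level 0 members were at least 2-fold higher, so the higher calls of RPS29 and RPS24 rest on low counts. With pseudogene counts added, the large subunit held 58.8% of the members' counts in untreated cells. The large minus small subunit difference in medians, -0.29, was 0.055 at a filter of 20 CPM and 0.39 at a mean of at least 50 CPM, and the cause was not tested. No paired analysis was possible because each group had 1 library, and for the same reason no replicate could be left out. Depth limits the members with few counts in both libraries: the interval of RPL41, -1.81 to 3.52, includes a 2-fold difference in either direction.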
